A study of Homo sapiens with 6 samples.

Results

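A set of 7 genes with links to pre-mRNA splicing was followed: the 4 CDC-like kinase genes CLK1, CLK2, CLK3 and CLK4, and ARGLU1, C1orf63 and PAXBP1. They are 7 of the 27420 genes in the deposited table, and each symbol was listed once. ARGLU1, C1orf63 and PAXBP1 were selected on their values at 50 nM THZ1, which were at least 2-fold above DMSO in both cell lines. The 4 kinase genes were added as a family and were not named for that rise, but all 7 were chosen with earlier results of these data known. The values at 50 nM therefore describe the genes and do not test them. RNA-seq covered A673 and SKNMC, established Ewing sarcoma cell lines that carry an EWS-FLI1 fusion. Cells of each line received for 6 h either DMSO (the vehicle) or THZ1, which inhibits CDK7 covalently, at a low dose of 50 nM or a high dose of 200 nM. CDK7 is a kinase of the general transcription factor TFIIH that phosphorylates the C-terminal domain of RNA polymerase II. There was 1 library per condition, 6 in all, which leaves no spread between replicates to compare with, so differences are given as values without tests.

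CLK kinases phosphorylate serine and threonine residues of SR proteins, the arginine/serine-rich (RS) factors that help the spliceosome find exons. This phosphorylation moves SR proteins out of nuclear speckles, their storage sites, and changes which splice sites are used. Transcripts of CLK genes are themselves known to be spliced in alternative ways, with skipped exons and retained introns, and this is part of how the kinases are regulated. ARGLU1 is an arginine- and glutamate-rich protein that modulates splicing and acts as a coactivator with the Mediator subunit MED1. C1orf63, named RSRP1 in newer annotations, encodes a small arginine- and serine-rich protein of poorly known function. PAXBP1 links the transcription factors PAX3 and PAX7 to histone methyltransferases, and its paralog GCFC2 takes part in spliceosome turnover.

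The genes lie apart from each other. In the hg19 coordinates of the deposited table, CLK1 spans chr2:201717732-201729422 on the minus strand and CLK2 chr1:155232659-155248282 on the minus strand. CLK3 spans chr15:74890841-74932057 on the plus strand, and CLK4 spans chr5:178029665-178057616 on the minus strand. On the minus strand too, ARGLU1 spans chr13:107194021-107220512, C1orf63 chr1:25568728-25664704 and PAXBP1 chr21:34106210-34144169. All 7 are protein-coding.

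The CLK genes are recognised by the LAMMER signature of their kinase domain, and the codons of that signature are set side by side below. The stretches below were read from GRCh37, the assembly behind hg19, with the coding exons of GENCODE release 44 lifted to that build. Capitals mark the codons of the signature, which read LAMMER in CLK1, CLK2 and CLK4 and LVMMEK in CLK3. In all 4 genes the signature lies in exon 11 of 13, at chr2:201719371-201719403 in CLK1, chr1:155234044-155234076 in CLK2, chr15:74920960-74920992 in CLK3 and chr5:178032336-178032368 in CLK4.
CLK1: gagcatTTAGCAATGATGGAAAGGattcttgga
CLK2: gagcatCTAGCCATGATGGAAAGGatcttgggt
CLK3: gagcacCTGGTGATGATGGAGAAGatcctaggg
CLK4: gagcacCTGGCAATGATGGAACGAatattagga
Between 6 and 10 of the 33 bases differed in each pair. CLK1 and CLK2 differed least, at 6, and CLK1 and CLK4 differed at 8. Over the aligned coding sequence CLK1 and CLK4 shared 77.5% of bases, and the other 5 pairs shared between 62.7% and 68.9%. No 50-base window of a transcript of any of the 7 genes occurred in a transcript of another. Windows shared with genes outside the set made up 0% for ARGLU1 and PAXBP1, 0.0556% for CLK1, 0.693% for CLK3 and 1.86% for CLK4. They made up 3.28% for CLK2, all shared with the pseudogene CLK2P1, and 6.24% for C1orf63, and how reads with several matches were counted was not given in the sources used here.

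Exon 4 is the exon of the CLK genes best known for being skipped, and it is shown because the deposited gene totals add the forms with and without it. Capitals mark the exon, and the lower-case letters are the first and last intron bases beside it. The exons lie at chr2:201724848-201724938, chr1:155238499-155238586, chr15:74914461-74914557 and chr5:178044345-178044435 in GRCh37, and each sequence is that of its gene's own strand.
CLK1 exon 4: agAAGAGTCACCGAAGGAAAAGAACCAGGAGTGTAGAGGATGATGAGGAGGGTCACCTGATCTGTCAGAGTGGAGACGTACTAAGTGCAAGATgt
CLK2 exon 4: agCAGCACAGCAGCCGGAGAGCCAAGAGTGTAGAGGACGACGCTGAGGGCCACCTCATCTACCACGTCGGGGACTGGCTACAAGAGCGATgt
CLK3 exon 4: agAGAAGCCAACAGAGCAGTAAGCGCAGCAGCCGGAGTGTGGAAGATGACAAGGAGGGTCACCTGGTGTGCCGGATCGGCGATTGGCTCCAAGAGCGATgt
CLK4 exon 4: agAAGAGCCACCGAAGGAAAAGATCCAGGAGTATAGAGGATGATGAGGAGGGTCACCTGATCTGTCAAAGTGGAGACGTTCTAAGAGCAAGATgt
The 4 exons hold 91, 88, 97 and 91 coding bases. None is a multiple of 3, and each leaves a remainder of 1, so a transcript without the exon changes reading frame. CLK1 and CLK4 were identical at 93.4% of 91 aligned bases, against 64.8% to 70.8% in the other pairs. The annotation holds a transcript that skips the exon in all 4 genes: 1 of 14 transcripts of CLK1, 1 of 7 of CLK2, 5 of 27 of CLK3 and 2 of 13 of CLK4.

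Transcripts with a retained intron are annotated for most of these genes. Transcripts of the retained-intron type numbered 8 of 14 for CLK1, 8 of 27 for CLK3, 7 of 13 for CLK4, 4 of 22 for C1orf63, 3 of 9 for PAXBP1 and 1 of 4 for ARGLU1, and CLK2 had 0 of 7. Thus 6 of the 7 genes (85.7%) had at least 1 of this type. The share was 62.8% of the 10280 protein-coding genes that exceeded 1 FPKM in each DMSO library. CLK1, CLK3 and CLK4 had at least 7, as did 9.48% of those protein-coding genes, a limit that is the lowest of these 3 numbers. The median number of annotated transcripts was 13 for the 7 genes and 9 for those protein-coding genes, so the shares are not matched for it. The type is a label of the annotation. In CLK2 3 introns of the main annotated transcript were covered whole by an annotated exon of the gene, and in PAXBP1 0. Intron 4 of CLK1 (378 bases, chr2:201724470-201724847), which follows exon 4, was kept in 2 transcripts, and intron 2 of ARGLU1 (2300 bases, chr13:107209480-107211779) in 1. The annotation is given as background to the gene totals. The FPKM values are per gene, so how much of a gene's RNA was spliced in which form was not measured here.

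Expression was measured as FPKM, the fragments of a gene corrected for the length of its transcripts and for the fragments mapped in the library, so that levels of different genes can be compared. FPKM is relative to the other RNA of a library. A fall in total RNA per cell does not appear in it, and in these bulk samples fewer expressing cells and less RNA per cell cannot be told apart. The read depth is unknown, since FPKM holds no counts. All 7 Ewing sarcoma markers checked (FLI1, CD99, NR0B1, NKX2-2, STEAP1, CCND1 and PRKCB) were above 1 FPKM in all 6 libraries, with summed levels of 709 to 1542 FPKM. The 8 markers of neural and muscle cells summed to 3.34 to 6.03 FPKM, with 1 or 2 of them above 1 FPKM in a library and MYOG, a muscle regulator, listed at 0 in all 6. This marker sum was highest in the 200 nM libraries of both lines, and its part in the values at that dose was not tested. All 7 genes of interest were above 1 FPKM in every library.

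With DMSO, 6 of the 7 genes were expressed within a narrow range in A673, and CLK4 stood below them. In order of level, A673 had CLK3 at 23.5 FPKM, C1orf63 at 21.1, CLK1 at 20.0, CLK2 at 18.2, ARGLU1 at 18.1, PAXBP1 at 17.4 and CLK4 at 5.71. Without replicates no order among the first 6 can be set against an error. SKNMC had ARGLU1 at 42.9 FPKM, CLK1 at 34.4, C1orf63 at 29.7, CLK2 at 24.8, PAXBP1 at 19.9, CLK3 at 17.8 and CLK4 at 7.92. CLK3 thus led in A673 and came next to last in SKNMC, while CLK4 was lowest in both.

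Differences were expressed as log2((FPKM + 1) ratio), and genes above 1 FPKM with DMSO were called active. Between the DMSO libraries, ARGLU1 was the only one of the 7 at least 2-fold apart, its FPKM in SKNMC being 2.37 times that in A673. Of 12399 genes active in either line, 15% were at least 2-fold higher in SKNMC and 8.42% at least 2-fold lower. On the log2 scale (SKNMC against A673) CLK1 differed by 0.75, C1orf63 by 0.48, CLK2 by 0.43, CLK4 by 0.41, PAXBP1 by 0.19 and CLK3 by -0.39, beside a median of 0.11 over all those genes. When libraries were divided by the median of ribosomal protein genes, the log2 difference of ARGLU1 was 0.76, under 2-fold, and the signs of CLK2 (-0.01) and PAXBP1 (-0.25) turned.

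**Figure D1:**
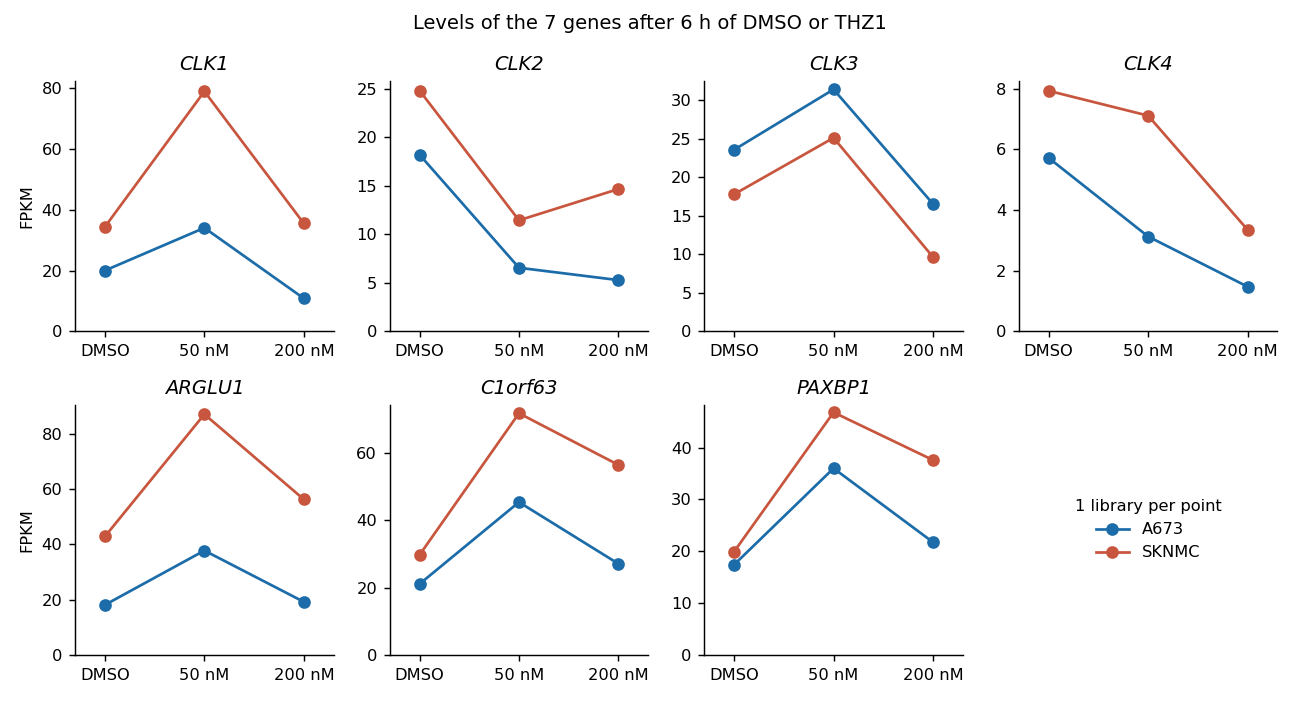
Levels of the 7 genes (FPKM, vertical axes from 0) with DMSO, 50 nM and 200 nM THZ1 in A673 (blue) and SKNMC (red), 1 library per point, lines joining the libraries of a cell line. CLK1, CLK3, ARGLU1, C1orf63 and PAXBP1 peak at 50 nM in both lines, CLK2 is highest with DMSO, and CLK4 declines from 5.71 to 1.47 FPKM in A673 and from 7.92 to 3.34 in SKNMC.

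The comparison with DMSO asks how these genes stood at a low and a high dose of the CDK7 inhibitor. At 50 nM, 3 of the 7 genes in A673 and 4 in SKNMC were at least 2-fold higher than with DMSO. Among all active genes the share was 0.343% of 11077 in A673 and 0.471% of 11896 in SKNMC. ARGLU1, C1orf63 and PAXBP1, which were selected on this very comparison, made up the count in A673, and CLK1 was the additional gene in SKNMC, so nothing is read from these counts. Dividing libraries by the median of ribosomal protein genes left none of the 7 past 2-fold in either line. CLK2 was at least 2-fold lower in each line, as were 15.9% of active genes in A673 and 15.8% in SKNMC. When libraries were divided by the 75th percentile of active genes CLK2 in SKNMC was at -0.78, under 2-fold, and 9.67% of active genes were past it, compared with 28.5% under the ribosomal scaling. Over all active genes the median log2 fold change at this dose was -0.27 for A673 and -0.32 for SKNMC.

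At 200 nM none of the 7 genes was at least 2-fold higher in either line, beside 0.126% of active genes in A673 and 0.462% in SKNMC. CLK2 and CLK4 were at least 2-fold lower in A673, where 25.3% of active genes were, and CLK4 alone in SKNMC, where 27.3% were. The medians of all active genes were -0.40 and -0.55. Dividing libraries by the 75th percentile of active genes put 4.23% of active genes in SKNMC higher and 13.004% lower, with C1orf63 and PAXBP1 then past 2-fold at 1.46 and 1.44 and CLK4 no longer so at -0.57. Under the ribosomal scaling 51.8% of active genes in SKNMC were at least 2-fold lower, among them CLK2 (-1.28), CLK3 (-1.36) and CLK4 (-1.50), and in A673 CLK1 (-1.18) joined CLK2 and CLK4, beside 37.3% of active genes. These are comparisons of single libraries, and both doses in a line share 1 DMSO library.

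**Figure D2:**
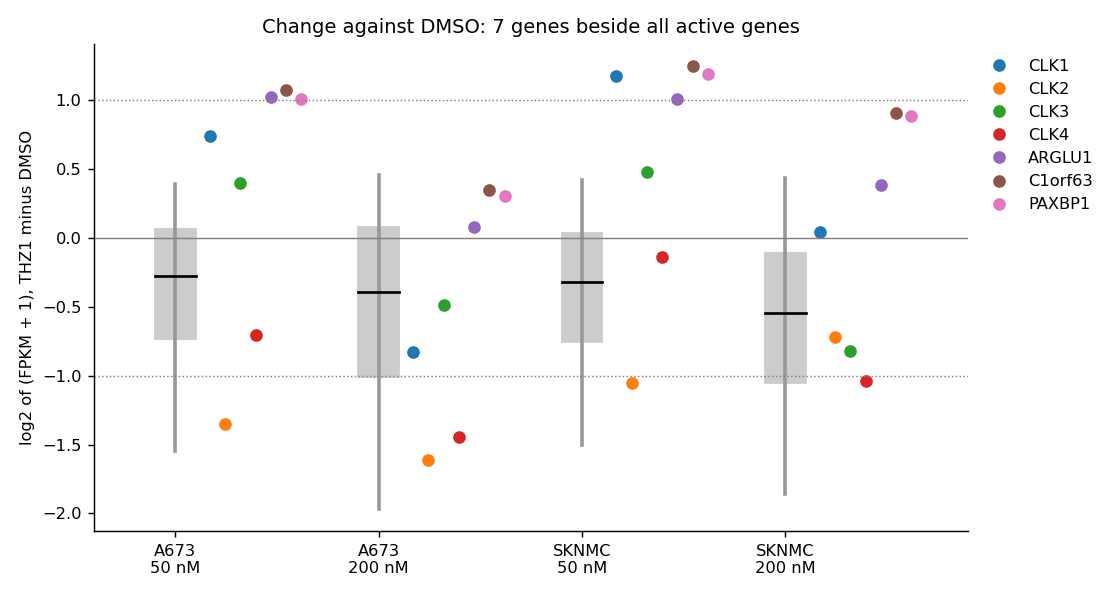
Log2((FPKM + 1) ratio) of THZ1 against DMSO for the 7 genes (coloured points) and for all active genes (grey: line from the 5th to the 95th percentile, box from the 25th to the 75th, black bar at the median), by line and dose. Dotted lines mark 2-fold. At 50 nM CLK1, ARGLU1, C1orf63 and PAXBP1, and by a small margin CLK3, lie above the 95th percentile in both lines, and CLK2 lies below the box.

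C1orf63 and PAXBP1 had nearly the same profile across the libraries. C1orf63 was at 21.1, 45.4 and 27.1 FPKM (DMSO, low dose, high dose) in A673, and at 29.7, 71.9 and 56.5 FPKM in SKNMC. PAXBP1 was at 17.4, 36.0 and 21.8 FPKM in A673 and at 19.9, 46.8 and 37.6 in SKNMC. Both genes were highest at 50 nM in each line and were above their DMSO level at 200 nM, except that dividing libraries by the median of ribosomal protein genes put PAXBP1 at -0.03 on the log2 scale in A673 (and C1orf63 at 0.01). In A673 the log2 fold changes against DMSO were 1.07 and 0.35 for C1orf63 and 1.01 and 0.31 for PAXBP1, low dose first. In SKNMC they were 1.25 and 0.90 for C1orf63 and 1.19 and 0.88 for PAXBP1, so the lines were farther apart at the high dose than at the low dose. At 200 nM in SKNMC, C1orf63 lay above 99.4% of active genes and PAXBP1 above 99.3%, and in A673 above 90.2% and 88.3%. These changes use the DMSO libraries on which both genes were selected, so they are not independent of the selection. Of the gain in FPKM seen at 50 nM, 63.6% for C1orf63 and 65.7% for PAXBP1 was left at 200 nM in SKNMC, against 24.7% and 23.3% in A673. The ratio of PAXBP1 to C1orf63 within a library, which no scaling of libraries can alter, was 0.826, 0.793 and 0.802 across the 3 A673 libraries and 0.670, 0.651 and 0.666 across those of SKNMC. The ratio thus differed more between the lines than between the conditions of a line, in single libraries. Both genes were selected for the rise at 50 nM, so the likeness of the ratio with DMSO and at 50 nM is not independent of the selection.

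Measured over the 4 log2 fold changes against DMSO, C1orf63 and PAXBP1 were each other's nearest gene in a pool of 7957 genes (over 5 FPKM with DMSO in each line), with a Euclidean distance of 0.10. The next nearest to C1orf63 were RBM33 (0.35) and PEG10 (0.44), and to PAXBP1 PEG10 (0.39) and SCML1 (0.42). The remaining genes thus lay farther from either than they lay from each other. The low-dose fold changes among the 4 are values on which both genes were selected, so the distance is not independent of the selection. By that rule both were among the 23 of 10574 genes at least 2-fold higher at the low dose in both lines. The 4 fold changes also share DMSO libraries within a line, so likeness describes these 6 libraries only.

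The deposited span of C1orf63 overlaps TMEM50A on the opposite strand by 297 bases, contains all 58053 bases listed for RHD, a blood group gene, and holds a long noncoding RNA, RP3-465N24.6. TMEM50A was at 102.7, 104.8 and 102.8 FPKM (DMSO, low dose, high dose) in A673, and at 107.8, 104.8 and 85.4 in SKNMC. RHD was at most 0.0562 FPKM and the noncoding RNA at most 0.428. The strand of the libraries was not given in the sources used here, and reads in overlapping parts cannot be told apart without it. PAXBP1 has a divergent neighbour, C21orf49, that starts 242 bases upstream on the other strand and was at most 0.212 FPKM.

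A stretch upstream of C1orf63 is shown because it holds a pair of GC boxes (GGGCGG on either strand, in capitals) close to the start site. It lies at chr1:25664746-25664807 in GRCh37, is written on the minus strand, falls inside the span of TMEM50A and overlaps no exon of GENCODE release 44.
C1orf63 upstream: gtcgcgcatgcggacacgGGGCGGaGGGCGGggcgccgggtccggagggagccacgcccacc
RefSeq promoter windows of 300 bases around the start site (GRCh38.p14) were searched on both strands for 6 of the 7 genes, the exception being PAXBP1. Only the most upstream RefSeq start of each of these genes was used, while the shares of all promoters cover every listed start. GGGCGG was in 5 of the 6, the exception being CLK3, and in 44.9% of 35097 promoters. CCATNTT, the core of the YY1 motif, was in 3 of the 6 (ARGLU1, CLK1 and CLK4) and in 15.6% of all. CACGTG was in 2 of the 6 (CLK2 and CLK4) and in 7.25% of all. TATAAA was in none of the 6 and in 11.5% of all, and a match describes letters only, not binding.

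ARGLU1 differed from this pair at 200 nM. It was at 18.1, 37.8 and 19.2 FPKM (DMSO, low dose, high dose) in A673, and at 42.9, 87.1 and 56.3 FPKM in SKNMC. The peak at 50 nM was as high relative to DMSO in both lines, with log2 fold changes of 1.02 and 1.01. At 200 nM the log2 fold change was 0.08 in A673 and 0.38 in SKNMC, which the ribosomal scaling turned to -0.26 and -0.21. Only 5.56% of the gain in FPKM was left at 200 nM in A673 and 30.3% in SKNMC. ARGLU1 lay above 94.0% of active genes at 200 nM in SKNMC, and above 75.3% in A673. These values too share the DMSO libraries of the selection. The genes most like it were AKAP8L, a nuclear matrix protein gene (distance 0.20), PNISR, which encodes an RS-rich speckle protein (0.31), and DMXL1 (0.33).

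CLK1, the best studied kinase of the family, also peaked at 50 nM. It was not among the genes named for a rise at that dose, but was chosen with earlier results known. Its level in A673 was 20.0, 34.1 and 10.8 FPKM (DMSO, low dose, high dose). In SKNMC it was at 34.4, 79.0 and 35.5 FPKM. The 50 nM library was thus highest in each line, and the 200 nM library was below DMSO in A673 and near it in SKNMC. The log2 fold changes at 50 nM were 0.74 in A673 and 1.18 in SKNMC, above 99.1% and 99.7% of active genes. At 200 nM they were -0.83 and 0.04, the latter turning to -0.54 under the ribosomal scaling. From 50 nM to 200 nM CLK1 was lower by the largest margin of the 7 genes in A673, with a log2 difference of -1.57, and by -1.13 in SKNMC (-0.86 with the 75th percentile scaling). Its nearest genes were C3orf58 (0.23), PRPF39, a U1 snRNP-associated splicing factor gene (0.40), and UHRF2 (0.50).

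CLK2 went the other way. It was at 18.2, 6.54 and 5.26 FPKM (DMSO, low dose, high dose) in A673, and at 24.8, 11.4 and 14.6 FPKM in SKNMC. Both doses were below DMSO in both lines, and in SKNMC the low dose was the lower of them. The log2 fold changes were -1.35 and -1.61 in A673 and -1.05 and -0.72 in SKNMC, of which the value at 50 nM in SKNMC was -0.78 with the 75th percentile scaling. At 50 nM only 8.01% of active genes in A673 and 14.1% in SKNMC lay below CLK2. From 50 nM to 200 nM CLK2 differed by -0.27 in A673 and by 0.33 in SKNMC, the only value above 0 among the 14 of this comparison. The nearest genes were TARDBP, which encodes the RNA-binding protein TDP-43 (0.24), ZC3H3 (0.26) and LPAR2 (0.26). Its span overlaps 909 bases of HCN3 on the other strand, which was at 0.595 to 2.05 FPKM.

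CLK3 also peaked at 50 nM, with a smaller rise than CLK1 in both lines. From 50 nM to 200 nM its drop was smaller than that of CLK1 in A673 and larger in SKNMC. It was at 23.5, 31.4 and 16.5 FPKM (DMSO, low dose, high dose) in A673, and at 17.8, 25.1 and 9.62 in SKNMC. The order of the 3 libraries was the same in both lines, with 50 nM highest and 200 nM lowest. The log2 fold changes were 0.40 and -0.49 in A673 and 0.48 and -0.82 in SKNMC, and from 50 nM to 200 nM they were -0.89 and -1.30. PPM1A, a phosphatase gene, was nearest (0.09), then SMOX (0.10). The 3' part of CLK3 overlaps EDC3, an mRNA decapping factor gene, on the opposite strand over 9159 bases. EDC3 was at 21.5, 11.9 and 12.05 FPKM in A673 and at 22.3, 10.2 and 8.31 in SKNMC, so it was lower at 50 nM where CLK3 was higher. How reads in the overlap were shared between the 2 genes is not known.

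CLK4, the closest relative of CLK1 in sequence, was the lowest expressed and did not share its peak. Its level in A673 was 5.71, 3.12 and 1.47 FPKM (DMSO, low dose, high dose), and in SKNMC it was at 7.92, 7.11 and 3.34. The level was lower at each higher dose in both lines. The log2 fold changes were -0.70 and -1.44 in A673 and -0.14 and -1.04 in SKNMC, and dividing libraries by the 75th percentile of active genes turned the value at 50 nM in SKNMC to 0.12 and left the value at 200 nM at -0.57. These values are drawn toward 0 by the added 1 because the level is low. With 0.1 added in its place, the value at 200 nM in A673 was -1.89. The nearest genes were PGS1 (0.10), SFSWAP, a splicing regulator gene (0.16), and ERCC6L2 (0.17).

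The 4 CLK genes summed to 67.4, 75.1 and 34.1 FPKM (DMSO, low dose, high dose) in A673, and to 84.9, 122.6 and 63.1 in SKNMC. Under the ribosomal scaling the sum in A673 was 98.3 with DMSO and 93.3 at 50 nM, so its order turned, while in SKNMC 50 nM remained highest (89.9 and 97.8). The share of each gene in this sum does not depend on how libraries are scaled. CLK1 made up 29.7%, 45.4% and 31.7% of the sum in A673, and 40.5%, 64.4% and 56.3% in SKNMC. CLK2 made up 27.0%, 8.70% and 15.5% in A673 and 29.2%, 9.31% and 23.2% in SKNMC. The shares of CLK1 were thus highest and those of CLK2 lowest at 50 nM in both lines. CLK3 made up 34.9%, 41.8% and 48.5% in A673 and 20.9%, 20.5% and 15.2% in SKNMC, so its share was highest at 200 nM in A673 and lowest at that dose in SKNMC. CLK4 stayed below 10% throughout, between 4.16% and 9.34%. The ratio of CLK1 to CLK2 was 1.10, 5.21 and 2.05 (DMSO, low dose, high dose) in A673, and 1.39, 6.92 and 2.42 in SKNMC. The ratio of CLK1 to CLK4 was 3.50, 10.9 and 7.36 in A673 and 4.34, 11.1 and 10.6 in SKNMC.

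**Figure D3:**
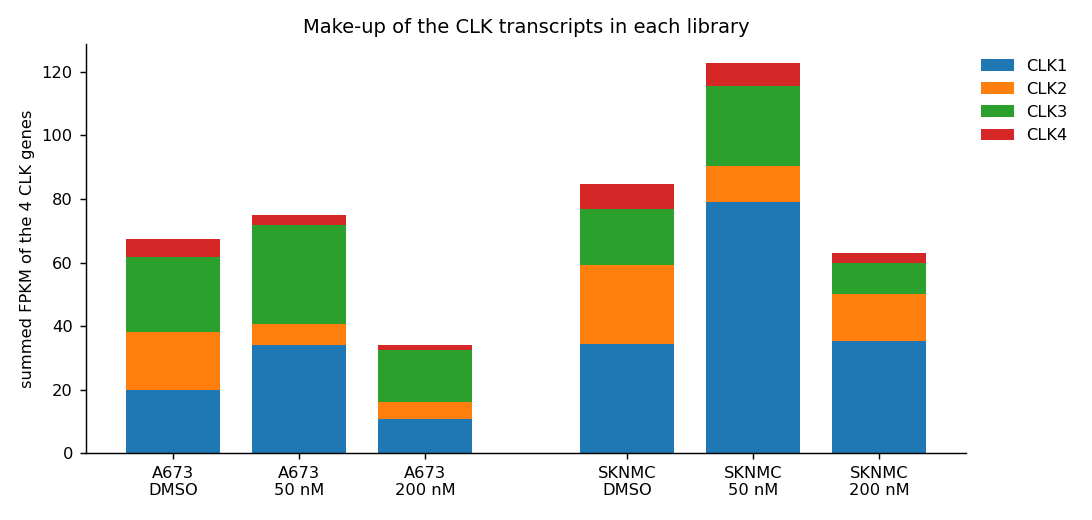
Stacked FPKM of CLK1, CLK2, CLK3 and CLK4 in each of the 6 libraries, vertical axis from 0, 1 library per bar. On the deposited scale the sum is highest at 50 nM in both lines, at 75.1 FPKM in A673 and 122.6 in SKNMC. The ribosomal scaling turned the order in A673. Within each line the share of CLK2 is lowest at 50 nM, at 8.70% in A673 and 9.31% in SKNMC. CLK4 makes up the smallest share of every bar.

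The comparison of the 2 doses places 6 of the 7 genes lower at 200 nM than at 50 nM in both lines, the exception being CLK2. Of 10574 genes active in both lines, 45.7% were lower at 200 nM in both. CLK1 in A673, and CLK1 and CLK3 in SKNMC, were at least 2-fold lower, as were 7.44% of active genes in A673 and 8.39% in SKNMC. None of the 7 was at least 2-fold higher, beside 0.117% and 0.37% of active genes. Dividing by the 75th percentile changed the shares in SKNMC to 1.71% higher and 4.86% lower, and left CLK3 (-1.05) but not CLK1 (-0.86) past 2-fold there. Under the ribosomal scaling CLK3 (-1.01) and ARGLU1 (-1.06) were also past 2-fold in A673, and CLK4 (-1.001) in SKNMC, beside 9.78% and 11.2% of active genes. The log2 differences of ARGLU1, C1orf63 and PAXBP1 were -0.94, -0.72 and -0.70 in A673 and -0.62, -0.34 and -0.31 in SKNMC, beside medians of -0.02 and -0.14 over all active genes. These 3 genes were selected for high values in the 50 nM libraries that this comparison also uses, so a lower value at 200 nM is not independent of the selection.

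Of the 7 genes 5, namely CLK1, CLK3, ARGLU1, C1orf63 and PAXBP1, were higher at 50 nM than with DMSO and lower at 200 nM than at 50 nM in both lines. This held for 1200 of the 10574 genes (11.3%). ARGLU1, C1orf63 and PAXBP1 were selected for the rise at 50 nM, so nothing is read from the count of 5. Of the kinase genes, CLK1 and CLK3 had this order and CLK2 and CLK4 did not. The kinase genes were not named for the rise, but were chosen with earlier results known. The same 5 genes had this order under a pseudocount of 0.1 and the 3 other scalings, where the share of all genes was 3.86% to 14.0%. At least 2-fold higher at 50 nM in both lines were 23 genes (0.218%), ARGLU1, C1orf63 and PAXBP1 among them, and 20 of the 23 (87.0%) were lower at 200 nM than at 50 nM in both lines. Ranked by the lower of the 2 changes at 50 nM, C1orf63 was at place 15, PAXBP1 at 21 and ARGLU1 at 23, the last one inside the 2-fold limit. CLK1 was at place 55 with 0.74, outside the limit through its A673 value, CLK3 at 298, CLK4 at 7083 and CLK2 at 9416.

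**Figure D4:**
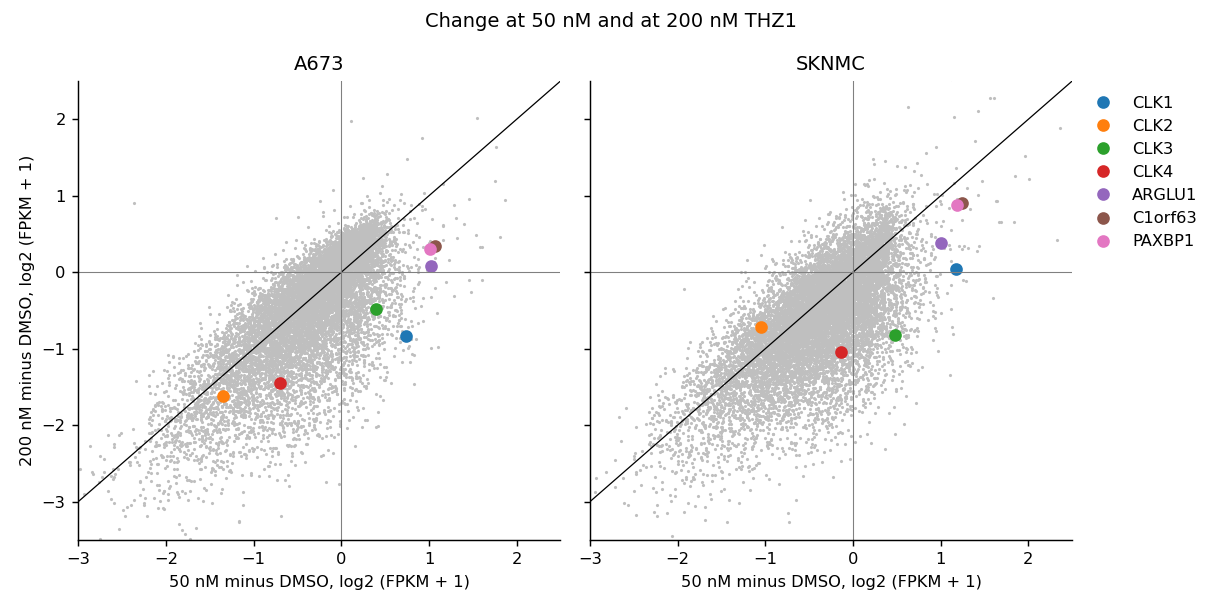
Log2((FPKM + 1) ratio) against DMSO at 50 nM (horizontal) and 200 nM (vertical) for active genes (grey) and the 7 genes (coloured) in A673 and SKNMC, with the diagonal of equal change. Genes outside the axes, 7 of 11077 and 9 of 11896, are not drawn. All 7 genes lie below the diagonal in A673, and in SKNMC all but CLK2 do.

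The lines were farther apart at 200 nM than at 50 nM for 6 of the 7 genes, as they were for 66.2% of the 10574 genes active in both lines, so a wider gap at the high dose was common to most genes. Under the ribosomal scaling the counts were 5 of the 7 and 70.8%. At 200 nM, subtracting the log2 fold change of A673 from that of SKNMC gave 0.89 for CLK2, 0.87 for CLK1, 0.58 for PAXBP1, 0.56 for C1orf63, 0.40 for CLK4, 0.30 for ARGLU1 and -0.33 for CLK3. The median over the 10574 genes was -0.12, with quartiles of -0.38 and 0.17, so 6 of the 7 genes lay above the upper quartile. At 50 nM the values lay between -0.01 for ARGLU1 and 0.44 for CLK1, except CLK4 with 0.56, beside a median of -0.02 and quartiles of -0.21 and 0.18. With 1 library per condition these differences were not tested.

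Other splicing-linked genes were taken from 4 lists and counted in the same way. Where 4 log2 fold changes follow a gene, they are those of A673 at 50 nM and 200 nM and then of SKNMC at 50 nM and 200 nM. The first held 11 active kinases related to the CLK family (SRPK, DYRK, HIPK and PRPF4B genes). At 50 nM 1 was at least 2-fold higher and 2 lower in A673, compared with 0 and 2 for SKNMC. Of all active genes 0.343% in A673 and 0.471% in SKNMC were higher at that dose, and 15.9% and 15.8% lower. At 200 nM 4 were lower and 0 higher in each line, beside the 25.3% and 27.3% of all active genes given above as lower. The number lower in SKNMC was 10 under the ribosomal scaling, where 51.8% of active genes were, and 3 with the 75th percentile. In A673 it was 5 and 2. The medians were -0.02 and -0.26 at 50 nM and -0.63 and -0.74 at 200 nM in A673 and SKNMC, the first of which turned to 0.22 with the 75th percentile scaling. DYRK1A, a kinase that also phosphorylates splicing factors, was at 22.8, 49.6 and 15.4 FPKM in A673 and at 25.1, 42.8 and 18.1 in SKNMC, with log2 fold changes of 1.09, -0.53, 0.75 and -0.45, so it too was highest at 50 nM. HIPK3 had 0.63 and -0.27 in A673 and 0.32 and -0.46 in SKNMC. DYRK3 was lowest on the list with -1.01 and -2.08 in A673 and -1.20 and -2.45 in SKNMC, followed by DYRK1B with -1.10, -1.18, -1.27 and -1.82.

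SR proteins and TRA2 proteins, the substrates of CLK kinases, were mostly below DMSO on the deposited scale. Of 13 listed genes, none was at least 2-fold higher at either dose. At 50 nM and 200 nM, 1 and 2 were lower in A673 and 3 and 4 in SKNMC. Of all active genes 15.9% and 25.3% were lower in A673, and 15.8% and 27.3% in SKNMC. The shares higher were 0.343% and 0.126% in A673, and 0.471% and 0.462% in SKNMC. The count in SKNMC at 200 nM was 8 under the ribosomal scaling and 0 with the 75th percentile, beside the shares of all active genes given above for these scalings. The medians were -0.28 and -0.39 in A673 and -0.24 and -0.71 in SKNMC, beside -0.27, -0.40, -0.32 and -0.55 over all active genes, and with the 75th percentile scaling they lay between -0.15 and 0.02. The lowest on the list was SRSF3, which was at 163.9, 63.5 and 67.9 FPKM in A673 and at 168.3, 53.0 and 57.1 in SKNMC, with -1.35, -1.26, -1.65 and -1.54. SRSF1, the founding SR protein, had -0.84 and -0.64 in A673 and -1.25 and -1.09 in SKNMC. Both genes were thus below DMSO in all 4 comparisons. At the upper end, SRSF11 had 0.26, -0.45, 0.43 and 0.24, and TRA2B 0.58, -0.23, 0.19 and -0.56.

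Among 29 other genes of RS-rich or nuclear speckle proteins, the middle of the list was above 0 at 50 nM, with medians of 0.27 in A673 and 0.19 in SKNMC, of which the ribosomal scaling turned the latter to -0.17 and left 0.05 of the former. At 200 nM the medians were -0.57 and -0.15, the latter turning to 0.41 with the 75th percentile scaling. Past 2-fold, 0 were higher and 1 lower in A673 at 50 nM, compared with 1 and 3 for SKNMC. At 200 nM the counts were 0 and 7 in A673 and 1 and 5 in SKNMC. Of all active genes 15.9% in A673 and 15.8% in SKNMC were lower at 50 nM, and 25.3% and 27.3% at 200 nM. The shares higher were 0.343% and 0.471% at 50 nM, and 0.126% and 0.462% at 200 nM. At 200 nM in SKNMC the 75th percentile scaling gave 6 higher and 4 lower, and the ribosomal scaling 0 higher and 13 lower. In A673 these scalings gave 4 and 11 lower. The shares of all active genes lower in SKNMC under both scalings, and higher under the first, are given above. From 50 nM to 200 nM, 28 of the 29 (96.6%) were lower in A673 and 24 (82.8%) in SKNMC, beside 51.7% and 62.0% of all active genes. The list medians for this step were -0.77 and -0.39. With the 75th percentile scaling 27 (93.1%) were lower in A673, with 43.6% of active genes, and 17 (58.6%) in SKNMC, with 42.9%, and the median in SKNMC was then -0.12. The order described for 5 of the 7 genes was found in 15 of these 29 (51.7%), in 3 of the 11 kinases (27.3%), in 3 of the 13 SR and TRA2 genes (23.1%) and in 0 of the 12 partner genes. Of the 10574 genes active in both lines 11.3% had it. These list counts were made on the deposited scale only, and the lists were chosen with earlier results known. CCNL1, a cyclin of the speckle, was at 23.6, 44.1 and 21.0 FPKM in A673 and at 24.9, 51.6 and 51.4 in SKNMC, with 0.88, -0.16, 1.02 and 1.01. NKTR, an RS-rich cyclophilin, had 0.65, 0.07, 0.99 and 0.93. At the lower end, RBM23 had -1.92, -1.68, -1.90 and -1.97 and RBM5, a regulator of exon skipping, -0.997, -2.31, -0.28 and -1.85.

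Genes of proteins known to work with PAXBP1 or ARGLU1 had medians below those of all active genes at 200 nM in both lines and at 50 nM in A673. Of 12 active genes none was at least 2-fold higher. At 50 nM and 200 nM, 3 and 7 were lower in A673 and 2 and 6 in SKNMC. Of all active genes 15.9% and 25.3% were lower in A673, and 15.8% and 27.3% in SKNMC. The shares higher were 0.343% and 0.126% in A673, and 0.471% and 0.462% in SKNMC. At 200 nM in SKNMC the count was 3 with the 75th percentile scaling and 10 under the ribosomal scaling. The shares of all active genes lower there under these scalings are given above. The medians were -0.54 and -1.15 in A673 and -0.32 and -1.01 in SKNMC. JMJD6, a hydroxylase that acts on splicing factors, was at 23.4, 7.33 and 5.89 FPKM in A673 and at 12.98, 2.95 and 3.07 in SKNMC, with -1.55, -1.82, -1.82 and -1.78. RBBP5, a subunit of histone methyltransferase complexes, had -0.84, -1.75, -0.31 and -1.60. GCFC2, the paralog of PAXBP1, was at the upper end with -0.34, -0.42, 0.17 and -0.28, and the helicase gene DHX15 had -0.19, -0.53, -0.10 and -0.28.

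**Figure D5:**
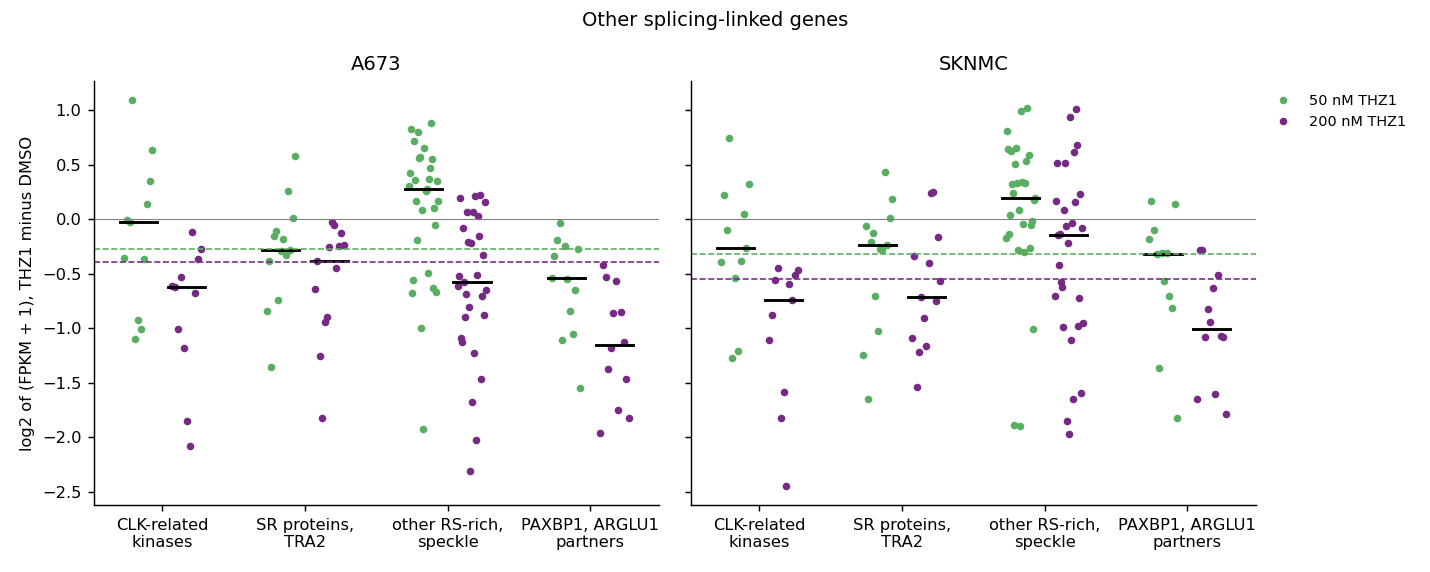
Log2((FPKM + 1) ratio) against DMSO at 50 nM (green) and 200 nM (purple) for each gene of the 4 lists in A673 and SKNMC, with black bars at the list medians and dashed lines at the medians of all active genes. On this scale the RS-rich and speckle list is the only list with a median above 0, at 50 nM (0.27 in A673 and 0.19 in SKNMC, the latter -0.17 under the ribosomal scaling).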

How the data were processed

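RNA-seq was done by the authors on A673 and SKNMC cells, with TruSeq libraries and 100-bp paired-end reads on a HiSeq2000. The authors aligned reads to hg19 with STAR, using Ensembl release 75, and estimated FPKM with StringTie, while the submitters' processing notes name STAR and Cufflinks. The deposited FPKM values cover 27420 genes (20311 protein-coding and 7109 lincRNA). The title of the table speaks of average expression, but the labels give 1 library per condition, and how many cultures a column stands for was not given in the sources used here. The authors' log2 fold changes were deposited too and were not used. The lowest FPKM values did not show the steps of whole reads (at most 1.34% of low values sat at the most frequent ratio between libraries), so depth was not recovered. FPKM summed to 451872 to 462997 over the listed genes.

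Each fold change was log2((FPKM + 1) / (FPKM + 1 of the reference library)). This understates changes of low genes. A gene was active above 1 FPKM in the DMSO library of its line, and counts used 2-fold. The genes named are the 7 chosen ones, of each list the 2 highest and 2 lowest by the mean of the 4 log2 fold changes, the 3 genes at the smallest Euclidean distance to each chosen gene, and genes whose spans overlap or start beside them. For CLK3, 1 of those 3 genes is not reported here. The genes and lists were chosen with earlier results of these data known. Coordinates are those of the table with starts counted from 1, sequences come from GRCh37 with GENCODE release 44 lifted to it, and promoter letters from RefSeq. Alternatives were a pseudocount of 0.1, scaling to a common sum, by the 75th percentile or by 83 ribosomal protein genes, other sets of background genes, and 1.5-fold. Only the 2-fold call and the distance ranking were tried on simulated data, with large planted shifts and planted near-copies. The other steps were not tried in this way. Python 3.11.15, numpy 2.4.6, pandas 2.3.3 and Biopython 1.88 were used.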

Additional observations from a re-analysis of the deposited data

Results flagged for a closer look

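CLK1 at 200 nM THZ1 lay on opposite sides of DMSO in the lines, with a log2 fold change of -0.83 in A673 and 0.04 in SKNMC, a difference of 0.87. The difference was not tested, since each value compares 2 libraries. Dividing libraries by the median of ribosomal protein genes put both values below 0, at -1.18 and -0.54, and dividing by the 75th percentile gave -0.48 and 0.60.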

How the results depend on the processing

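The 13 counts of genes past 2-fold (higher and lower in 6 comparisons, and apart between the DMSO libraries) were all as given when libraries were scaled to a common sum. A pseudocount of 0.1 left 12 within 1.5 times, the other being the genes lower at 200 nM than at 50 nM in A673, which became 2. Scaling to the 75th percentile of active genes shifted the median over all active genes by 0.22 and 0.32 in A673 and by 0.25 and 0.48 in SKNMC at 50 nM and 200 nM. It changed the counts in SKNMC to 0 lower at 50 nM, 2 higher and 0 lower at 200 nM, and 1 lower at 200 nM than at 50 nM. Dividing by the median of 83 ribosomal protein genes shifted it by -0.22 and -0.33 in A673 and by -0.34 and -0.48 in SKNMC. The genes at least 2-fold higher at 50 nM then became 0 in A673 and 0 in SKNMC, with ARGLU1 at 0.81 and 0.60, C1orf63 at 0.86 and 0.84, PAXBP1 at 0.79 and 0.79 and CLK1 at 0.52 and 0.77. The genes lower at 200 nM became 3 in SKNMC, those lower at 200 nM than at 50 nM became 3 in A673, and those apart between the DMSO libraries became 0. With 1.5-fold in place of 2-fold, 2 genes were lower at 50 nM in A673, 2 higher and 3 lower at 200 nM in SKNMC, 6 lower at 200 nM than at 50 nM in A673 and 4 in SKNMC, and 2 apart between the DMSO libraries. Shares of all active genes at 1.5-fold are not set beside these counts, so nothing is read from them.

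Of 42 signs (7 genes in 6 comparisons within a line), 0 changed with the pseudocount or the common sum, 1 with the 75th percentile (CLK4 at 50 nM in SKNMC) and 4 with the ribosomal protein genes (ARGLU1 at 200 nM in both lines, PAXBP1 in A673 and CLK1 in SKNMC). At 1.5-fold, 1.78% of active genes in A673 and 2.43% in SKNMC were higher at 50 nM. The share of all genes past 2-fold under the pseudocount and the scalings, the dose order, the lists, the step from 50 nM to 200 nM, the CLK sums and the gap between the lines under them were alternatives chosen after seeing the data. Without replicates and read counts neither the spread between cultures nor the counting error of a value is known, and leaving out a replicate was not possible. No standard was added that could show which scaling follows RNA per cell.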
